A study of Mus musculus with 28 samples.

Results

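A set of 10 genes of the cytokine circuit built on IL-6, IL-1 and TNF was followed: the ligands Il6, Lif, Osm, Il1a, Il1b, Tnf and Il10, the receptor antagonist Il1rn, and the receptor subunits Il6ra and Il6st. They were taken by name and make up 10 of the 18193 genes that have a probe set of their own on the array. All 10 were measured, by 17 of 45101 probe sets, and the brightest probe set of a gene is meant unless another is named. No filter on low values was applied. The cells were primary B-cell lymphomas from lymph nodes of Emu-myc transgenic C57BL/6 mice, in which an immunoglobulin heavy-chain enhancer drives the Myc oncogene in the B lineage. Every culture in both groups also carried Bcl2, an inhibitor of apoptosis, from an MSCV retrovirus selected with puromycin, and grew on a feeder layer of NIH 3T3 mouse fibroblasts irradiated with 20 Gy. The 14 untreated arrays and the 14 ADR arrays came from the same 14 lymphomas, 1 array of each kind per lymphoma, and ADR stands for 0.05 µg/ml Adriamycin (doxorubicin), a drug that breaks DNA, given for 5 days. The labels give no age of the animals and no sort that would part lymphoma cells from feeder or host cells.

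IL-6, LIF and oncostatin M (Osm) belong to a cytokine family that signals through the shared receptor subunit gp130, encoded by Il6st, to the JAK kinases and the transcription factor STAT3. IL-1α and IL-1β (Il1a, Il1b) act on the IL-1 receptor and TNF on its own receptors, both leading to NF-kB, which in turn drives many cytokine genes, and the IL-1 receptor antagonist (Il1rn) and IL-10 restrain this response. Senescent cells are known to secrete such cytokines, with IL-6 and IL-1α among the best studied, and fibroblasts and macrophages are strong sources of several of them. The comparison asks how these genes changed in lymphoma cultures exposed to a drug that can induce senescence. Senescence itself was not measured by these arrays.

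Of the 10 genes, 9 rose after ADR and none fell, where 15.3% of all genes tested rose and 13.4% fell. Changes are log2 differences, ADR minus untreated within a lymphoma, given with the standard error (SE) of limma's paired fit over n = 14 lymphomas and Benjamini-Hochberg adjusted p over 18193 genes. The largest were those of Il6 and Il1rn, each at 2.04 on that scale, or 4.12-fold and 4.11-fold. Il1b, Lif, Il10, Il1a, Tnf, Il6st and Il6ra followed in that order, from 1.96 down to 0.61. Osm did not pass the test, at 0.02 ± 0.12 (SE, adjusted p = 0.928). The median change over the 10 genes was 1.37, against -0.0011 over all genes. Of the 10, 7 were higher in at least 13 of 14 lymphomas, a pattern seen in 7.24% of all genes. The number of arrays limits the precision of each value.

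**Figure D1:**
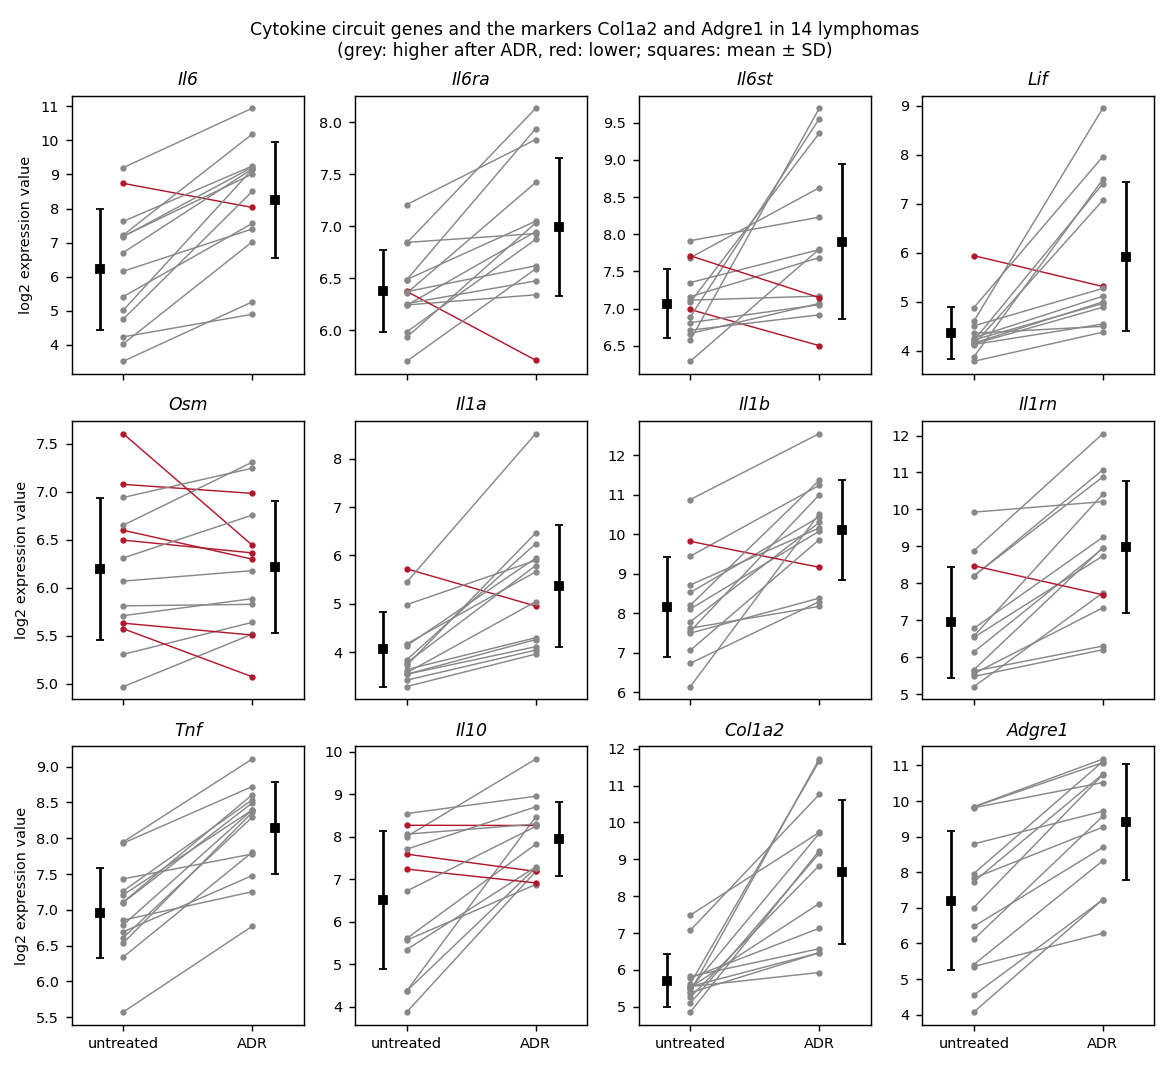
Log2 expression value (vertical axes, with a separate range per gene) of each of 12 genes in the untreated and the ADR array of 14 lymphomas; a line joins the 2 arrays of a lymphoma, red where the ADR value is lower, and squares with bars give the mean ± SD. Tnf, Col1a2 and Adgre1 were higher in 14 of 14 lymphomas, while Osm was higher in 8 and lower in 6.

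Markers of other cells moved in the same cultures. Col1a2, a collagen gene that marks the fibroblast feeder, was higher in 14 of 14 lymphomas (2.95 ± 0.47, adjusted p = 2.18e-04), and Adgre1, which encodes a surface receptor typical of macrophages, was also higher in all 14 (2.21 ± 0.26, adjusted p = 1.75e-05). Of 16 measured fibroblast markers 15 rose, all but Pdgfrb, and their mean level lay between 4.56 and 5.44 in untreated arrays and between 4.94 and 8.82 in ADR arrays. Of 15 macrophage markers 9 rose, with mean levels from 4.81 to 7.82 and from 5.77 to 8.84, and Mrc1, Cd163, Mertk, C1qa, C1qb and C1qc did not pass. Of 9 granulocyte markers 3 rose, namely S100a8, Camp and Mmp8, with mean levels of 3.89 to 4.96 untreated and 4.06 to 5.59 after ADR. Of 8 T cell markers and 4 NK cell markers none rose in limma's test (1 of each list at an unadjusted p under 0.05), and the NK gene Prf1 fell by 0.33. Of 5 dendritic cell markers Itgax rose by 0.31 and Flt3 fell by 0.47. Among the 7 B cell markers, Cd79a, Cd79b and Cd22 lay at 9.68 or above in every untreated array and Ebf1 at 6.85 or above. Ms4a1 and Blk spread widely, from 5.46 and 4.51 upwards, and Pax5 lay between 5.27 and 5.94, where array medians lay between 4.71 and 4.80. After ADR 4 of the 7 fell. In such bulk RNA, a change in the number of cells of a type and a change in RNA per cell cannot be told apart. The part of these cells in the cytokine changes was not tested beyond the comparisons with Col1a2 and Adgre1 below. The ADR array of lymphoma 1570 stood highest in the gap between 3' and 5' Gapdh signal (0.92 on the log2 scale), and without this lymphoma the same 9 genes rose.

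The upstream sequences of a few of these genes show which letters known to bind the factors of this circuit are there. RefSeq promoter windows on GRCm38.p6, which run from 250 bases before to 50 bases after a transcription start, were matched for 8 of the 10 genes; Osm and Il10 had none in the table. Il6 and Tnf are printed as 2 of the genes that rose with no called slope on Col1a2. Lif and Il1a are printed as 2 that rose with one, as described below. Il6st also rose with one, but its window, which held no match to any letters searched here, is not printed. Those of Il1b, Il1rn and Il6ra, which rose without one, are not printed either. Printed are the 250 bases before the start, 5′ to 3′ on the gene's strand, and capitals mark matches to the NF-kB letters GGNNTTTCC, the AP-1 letters TGANTCA or the CRE letters TGACGTCA on either strand.
Il6 (chr5:30012864-30013113, strand +): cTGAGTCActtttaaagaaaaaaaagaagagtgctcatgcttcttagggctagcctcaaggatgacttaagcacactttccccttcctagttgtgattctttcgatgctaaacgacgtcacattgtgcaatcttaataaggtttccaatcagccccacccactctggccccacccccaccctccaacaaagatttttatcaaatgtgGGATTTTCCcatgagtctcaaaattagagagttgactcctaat
Tnf (chr17:35202008-35202257, strand -): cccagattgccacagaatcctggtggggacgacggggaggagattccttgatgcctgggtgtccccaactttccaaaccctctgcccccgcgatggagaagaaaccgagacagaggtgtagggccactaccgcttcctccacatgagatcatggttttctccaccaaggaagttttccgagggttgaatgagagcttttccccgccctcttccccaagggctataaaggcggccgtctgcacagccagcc
Lif (chr11:4257318-4257567, strand +): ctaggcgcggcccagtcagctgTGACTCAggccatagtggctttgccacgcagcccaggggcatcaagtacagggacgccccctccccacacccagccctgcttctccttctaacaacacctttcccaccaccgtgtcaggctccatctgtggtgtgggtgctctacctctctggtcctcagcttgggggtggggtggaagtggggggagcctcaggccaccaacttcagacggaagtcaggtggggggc
Il1a (chr2:129309973-129310222, strand -): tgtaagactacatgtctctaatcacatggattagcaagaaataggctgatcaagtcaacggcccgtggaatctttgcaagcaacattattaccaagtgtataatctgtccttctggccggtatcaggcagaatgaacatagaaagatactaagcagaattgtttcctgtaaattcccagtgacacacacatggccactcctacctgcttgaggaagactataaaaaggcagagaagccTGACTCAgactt
In Il6 an AP-1 match began 249 bases and an NF-kB match 43 bases before the start. Lif had an AP-1 match beginning 228 bases and Il1a one beginning 12 bases before the start. A window of Il1rn also held an AP-1 match, so that 4 of the 8 genes had one. AP-1 letters were in 7.81% of 32851 promoter windows. Such shares are per window, and the 8 genes had 10 windows. Il1rn, which has 3 windows, and Il6 held an NF-kB match, found in 5.82% of windows. No match to the NF-kB, AP-1, CRE or STAT letters (TTCNNNGAA) lay in the windows of Tnf, Il1b, Il6ra or Il6st, where CRE and STAT letters were in 1.79% and 8.30% of all windows. The C/EBP letters TTNNGNAA, found in 40.7% of all windows and not capitalised here, were in those of 6 of the 8 genes, all but Lif and Il6st. A match describes letters in these windows and says nothing of binding in these cells.

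Among the gp130 ligands, Il6 and Lif rose and Osm did not pass. The Il6 value, which is that of the cytokine that gives the circuit its name, lay at a lowest of 3.52, a median of 6.43 and a highest of 9.20 in untreated arrays. After ADR the lowest was 4.90, the median 8.76 and the highest 10.94, with a mean change of 2.04 ± 0.30 (adjusted p = 1.03e-04). The groups overlapped, with 4 ADR arrays above the highest untreated one, and lymphoma 5560 was highest in both. Il6 was higher after ADR in 13 lymphomas, most in 9584 (4.13) and 5043 (3.75), and was lower in 1467 (-0.70), which had the second highest untreated value.

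Lif, the leukaemia inhibitory factor gene, was near the low end of the scale without the drug, with a lowest of 3.78, a median of 4.21 and a highest of 5.94. After ADR it ran from 4.38 over a median of 5.19 to 8.95, a change of 1.55 ± 0.38 (adjusted p = 0.00525). This mean joined unlike lymphomas: 5560, 2581, 3769, 403 and 3594 had changes from 2.94 to 4.35, and the other 9 had changes of 0.85 or less. Lymphoma 1467 was again the exception, at -0.63. A second Lif probe set, with a mean value of 3.94, changed by 0.18 ± 0.08 (adjusted p = 0.103 over 34945 probe sets) and did not pass.

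Osm, a gp130 ligand made largely by myeloid cells, ran from 4.97 over 6.19 to 7.61 untreated and from 5.07 over 6.24 to 7.31 after ADR. It was higher in 8 lymphomas and lower in 6, with the extremes at -1.16 in 5560 and 0.66 in 403. The groups thus overlapped throughout.

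Both receptor subunits rose, with mean changes under 1. Il6ra, which encodes the IL-6 binding subunit, ran from 5.70 over 6.36 to 7.21 untreated and from 5.71 over 6.94 to 8.13 after ADR. Its change was 0.61 ± 0.14 (adjusted p = 0.00389), higher in 13 lymphomas and lower in 403 (-0.66). A dimmer Il6ra probe set changed by 0.06 ± 0.10 (adjusted p = 0.722) and did not pass.

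Il6st, which encodes gp130, ran from 6.29 over 7.04 to 7.91 untreated and from 6.502 over 7.74 to 9.70 after ADR, with a change of 0.83 ± 0.28 (adjusted p = 0.0336). Its rise was carried by few lymphomas: the median change was 0.42, while 403, 5560 and 2581 changed by 3.12, 2.67 and 2.28. The call was the weakest of the 9. It was lost without any 1 of lymphomas 2581, 3594, 403, 5560 or 7050, with changes down to 0.66 and adjusted p up to 0.0697. The other 3 Il6st probe sets changed by 0.85, 0.45 and 0.23, and none passed (adjusted p = 0.0978, 0.315 and 0.425).

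All genes of the IL-1 arm rose, the agonists together with their antagonist. Il1b, the secreted form that macrophages make in quantity, ran from 6.14 over 7.95 to 10.88 untreated and from 8.17 over 10.23 to 12.55 after ADR. The change was 1.96 ± 0.31 (adjusted p = 1.97e-04), or 3.90-fold. It was largest in 5043 (4.38), which had the lowest untreated value, and in 403 the ADR array was lower (-0.66).

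Il1a, the form that stays largely with the cell that makes it, ran from 3.29 over 3.75 to 5.72 untreated and from 3.96 over 5.35 to 8.52 after ADR. It rose by 1.31 ± 0.25 (adjusted p = 9.47e-04) and was higher in 13 lymphomas. The highest ADR value was again that of 5560, and in 1467 the ADR array was lower by 0.77.

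Il1rn ran from 5.21 over 6.56 to 9.93 untreated and from 6.21 over 8.96 to 12.05 after ADR. The change of 2.04 ± 0.32 (adjusted p = 2.01e-04) was seen in 13 lymphomas, and 6054 was lower after ADR (-0.78). Its other 2 probe sets rose by 2.47 ± 0.31 and 1.95 ± 0.28, so all 3 probe sets of this gene gave the rise.

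Tnf changed most evenly of the 10 genes. It ran from 5.57 over 6.98 to 7.95 untreated and from 6.77 over 8.38 to 9.11 after ADR, a rise of 1.19 ± 0.12 (adjusted p = 4.54e-06) or 2.28-fold. It was the only one of the 10 to be higher in all 14 lymphomas, with changes from 0.35 in 2949 to 1.83 in 3769 and an SD of 0.46 between lymphomas. In all, 9 of the 14 ADR arrays lay above the highest untreated one.

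Il10, whose product dampens the output of inflammatory cytokines, ran from 3.87 over 6.98 to 8.55 untreated and from 6.87 over 8.03 to 9.83 after ADR. The change was 1.43 ± 0.34 (adjusted p = 0.00433), higher in 11 lymphomas and lower in 2949 (-0.41), 5560 (-0.33) and 6054 (-0.0050). The spread between lymphomas was 1.62 (SD) untreated and 0.88 after ADR. Lymphomas 1467, 2581 and 403, with the lowest untreated values of 3.87 to 4.37, changed by 4.10, 3.31 and 2.90, and the ADR values of these 3 were 8.46, 7.18 and 7.27.

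**Figure D2:**
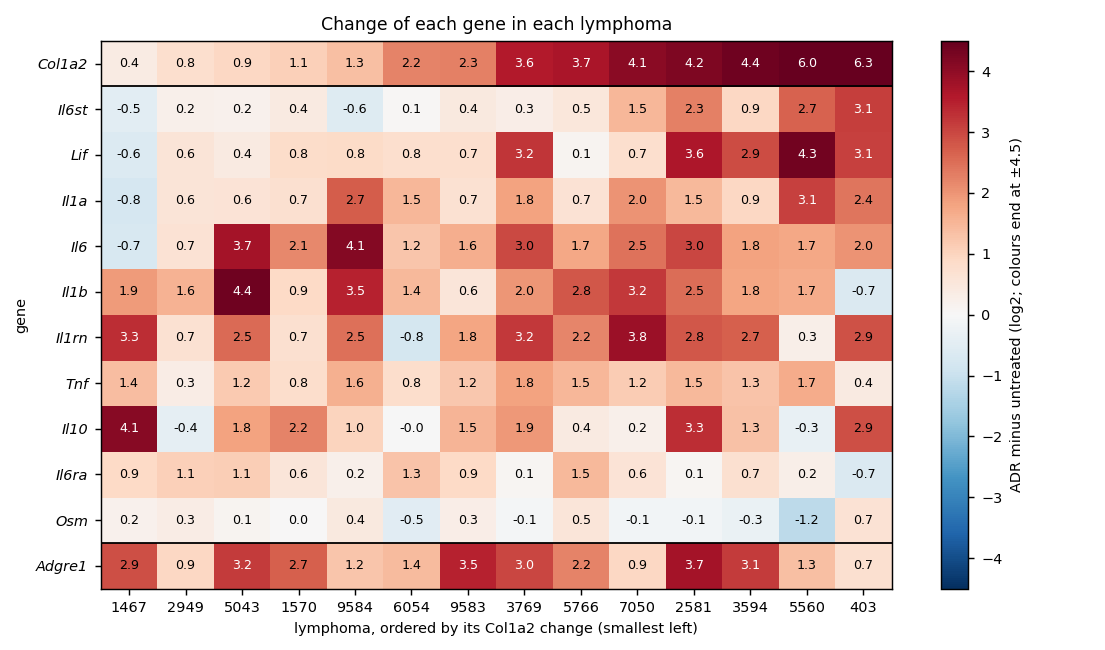
ADR minus untreated value (log2, colour and printed number) of 12 genes in each of 14 lymphomas, ordered from left to right by the Col1a2 change. Il6st and Lif darken towards the right with Col1a2, whereas the Tnf row is red in all 14 lymphomas and the Il1b, Il6 and Il1rn rows in 13.

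The genes differed in how their changes lay against those of Col1a2, which spread from 0.38 in lymphoma 1467 to 6.31 in 403. In limma's regression of the 14 changes of every gene on the Col1a2 change, Il6st, Lif and Il1a had positive slopes past the threshold, 3 of 10 genes against 8.58% of all genes. The slopes were 0.52 ± 0.07 for Il6st (adjusted p = 2.73e-04), 0.63 ± 0.12 for Lif (adjusted p = 0.00254) and 0.34 ± 0.10 for Il1a (adjusted p = 0.0333), each in log2 units per log2 unit of Col1a2. No slope of the other 7 genes passed, and that of Il6ra was negative at -0.17 ± 0.06 (adjusted p = 0.0887).

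Correlations over the same 14 changes, with permutation p adjusted over 20 relations of 10 genes with 2 markers, called fewer genes. For Il6st, Pearson r was 0.88 (adjusted p = 2e-04 from permutation p = 1e-05, the smallest that 100000 permutations can give) and Spearman rho 0.88 (adjusted p = 0.001 from permutation p = 5e-05). Without lymphomas 403 and 5560, the farthest from the median in Col1a2, r was 0.75 (adjusted p = 0.0341), and it was 0.87 within the 11 lymphomas that the labels tie to an earlier series. For Lif, r was 0.80 (adjusted p = 0.0077 from permutation p = 7.7e-04) and rho 0.69 (adjusted p = 0.0705 from permutation p = 0.00782), so the rank test did not pass. Its r fell short of the threshold without 403 and 5560 (0.68, adjusted p = 0.106) and was 0.78 within the 11. Against the mean of the 16 fibroblast markers in place of Col1a2 the order turned: Lif had r = 0.85 (adjusted p = 7e-04) and 0.79 without 403 and 5560 (adjusted p = 0.0314), and Il6st had r = 0.86 (adjusted p = 7e-04) and 0.69 without them (adjusted p = 0.100). Which of the 2 genes passes without these lymphomas thus depends on the marker used. For Il1a, r was 0.65 (adjusted p = 0.0889 from permutation p = 0.0133) and rho 0.67 (adjusted p = 0.0705 from permutation p = 0.0106), with 0.42 without 403 and 5560 and 0.83 (adjusted p = 0.0134) within the 11. Of the other genes, Il6ra had r = -0.57 (adjusted p = 0.164 from permutation p = 0.0328) and rho = -0.52 (adjusted p = 0.311 from permutation p = 0.0622), and r was -0.26 without 403 and 5560 and -0.61 within the 11. The remaining 6 had r between -0.32 and 0.15, with adjusted p from 0.612 to 0.865. For Il6 the r of 0.15 was 0.59 within the 11 (adjusted p = 0.181 from permutation p = 0.0539), and 0.60 there against the fibroblast list mean (adjusted p = 0.164), so its value over 14 depends on the other 3 lymphomas.

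**Figure D3:**
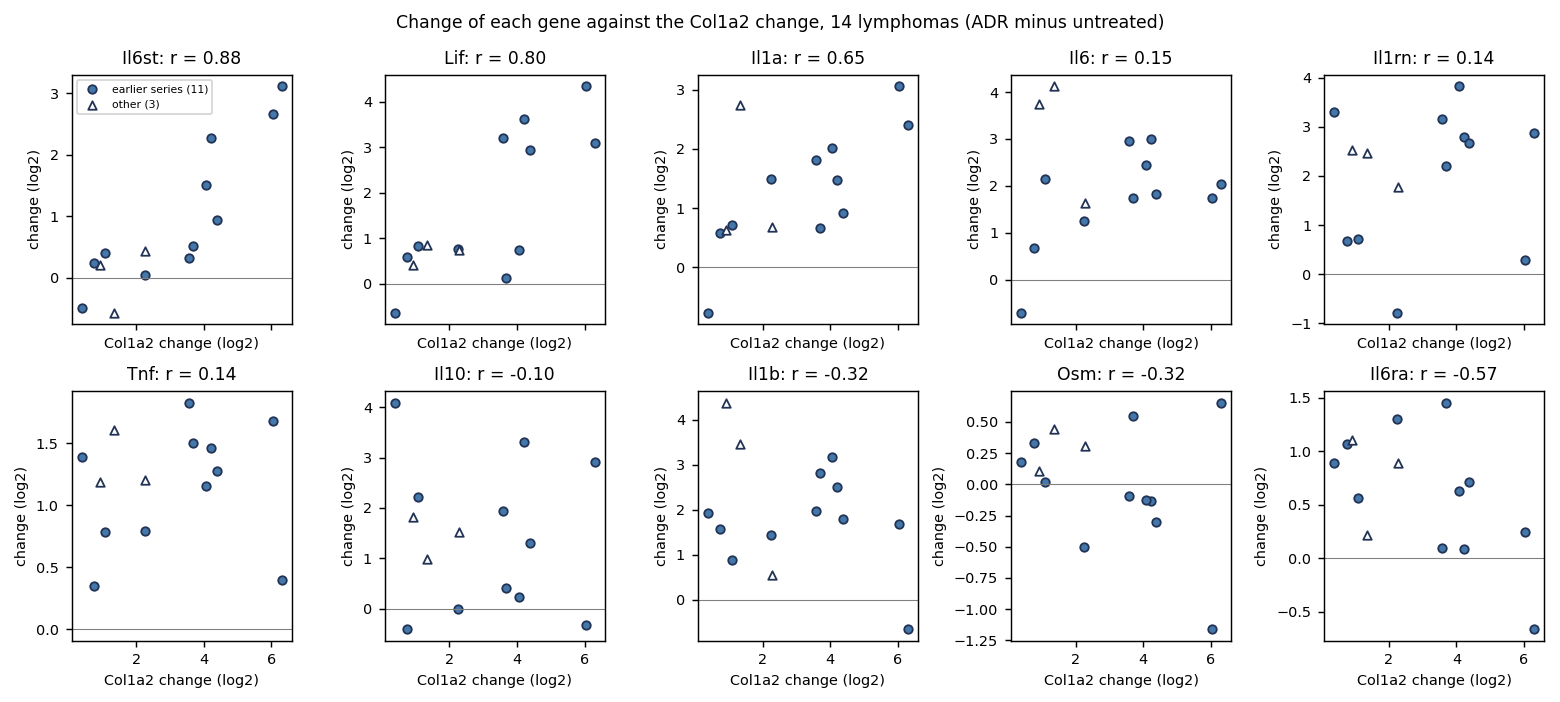
Change of each of the 10 genes (vertical axes, log2, a separate range per gene) against the Col1a2 change (horizontal axes, log2) in 14 lymphomas; circles are the 11 lymphomas of an earlier series and triangles the other 3, and r is Pearson's. Il6st (r = 0.88) and Lif (r = 0.80) climb with Col1a2, and Tnf has r = 0.14; Il6 has r = 0.15 over all 14 points and 0.59 over the 11 circles.

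The regression also gives a value where Col1a2 did not change, tested for each gene on its own. Il1b stood at 2.58 ± 0.55 (adjusted p = 0.00903), Il6ra at 1.11 ± 0.22 (adjusted p = 0.00689) and Tnf at 1.09 ± 0.22 (adjusted p = 0.00617), and these 3 of 10 genes passed, against 5.61% of all genes. Il1b and Il6ra stood above their plain mean changes of 1.96 and 0.61 because their slopes were negative. Neither slope passed in limma's regression (adjusted p = 0.441 and 0.0887). The dimmer Il6ra probe set had a plain change of 0.06 ± 0.10. Il6 (1.76 ± 0.56, adjusted p = 0.0570), Il1rn (1.76 ± 0.60, adjusted p = 0.0790) and Il10 (1.64 ± 0.63, adjusted p = 0.119) did not pass, beside plain mean changes of 2.04, 2.04 and 1.43 with narrower errors. Their values were larger than those of Tnf and Il6ra but had wider errors, and differences between genes were not tested. Il1a stood at 0.30 ± 0.36, Lif at -0.31 ± 0.43 and Il6st at -0.69 ± 0.26, none past the threshold (adjusted p from 0.107 to 0.746). The lowest observed Col1a2 change was 0.38, so these values lie just outside the data.

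Against Adgre1, no gene of the 10 passed. No slope of any of the 18192 other genes tested passed in limma's fit (0%). An unadjusted p under 0.05 was found for 957 of them, among them 2 of the 10. That count is close to the share of 0.05 that such a threshold gives where there is no relation. Yet the Adgre1 change followed the mean change of the other macrophage markers (r = 0.81, permutation p = 1.8e-04, and rho = 0.79, permutation p = 0.00124). The lack of a call in this fit over 14 changes thus does not show that a gene has no relation with Adgre1. Among the 10 genes the highest correlation was that of Il10, at r = 0.55 (adjusted p = 0.170 from permutation p = 0.0428) and rho = 0.47 (adjusted p = 0.359 from permutation p = 0.0898), with r = 0.58 within the 11 lymphomas. Without 403 and 7050, the farthest from the median in Adgre1, it was 0.76 (adjusted p = 0.0341). Il1a had r = -0.53 (adjusted p = 0.170 from permutation p = 0.0511) and rho = -0.42 (adjusted p = 0.432 from permutation p = 0.130), with r = -0.42 without these 2 lymphomas and -0.43 within the 11. For Tnf r was 0.44 (adjusted p = 0.344 from permutation p = 0.120) and rho 0.34 (adjusted p = 0.669 from permutation p = 0.234), with 0.30 without these 2 and 0.58 within the 11. Set against the mean of all 15 macrophage markers instead, Tnf had r = 0.64 (adjusted p = 0.0668 from permutation p = 0.0134). The Col1a2 and Adgre1 changes had r = -0.22 with each other (permutation p = 0.443) and rho = -0.13 (permutation p = 0.659). With the Adgre1 change as a covariate none of the 10 genes passed at no Adgre1 change, where 9 genes of all rose, and 3 of the 10 had an unadjusted p under 0.05. The values there ran from -0.15 ± 0.69 for Il10 to 2.435 ± 0.523 for Il1a. Il6 stood at 1.85 ± 0.73, Il1b at 1.55 ± 0.75 and Tnf at 0.78 ± 0.26, with wider errors than those of their plain changes. The lowest observed Adgre1 change was 0.71, so these values lie outside the data.

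Before the drug, Il1rn and Il1b varied with Adgre1. The untreated Il1rn level had r = 0.76 with the untreated Adgre1 level (adjusted p = 0.0434 over 20 relations from permutation p = 0.00217) and rho = 0.84 (adjusted p = 0.007 from permutation p = 3.5e-04). Untreated Il1b had r = 0.71 (adjusted p = 0.0478 from permutation p = 0.00478) and rho = 0.72 (adjusted p = 0.0535 from permutation p = 0.00535). Within the 11 lymphomas r was 0.81 and 0.78, each with adjusted p = 0.0461. Without 1570 and 5043, the farthest from the Adgre1 median, r was 0.68 and 0.62 and neither passed (adjusted p = 0.322, from permutation p = 0.0172 and 0.0322 over 12 lymphomas). No other relation passed by r, and those of Tnf and Il10 with Adgre1 were close to 0 (r = 0.06 and 0.0024; permutation p = 0.852 and 0.994).

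**Figure D4:**
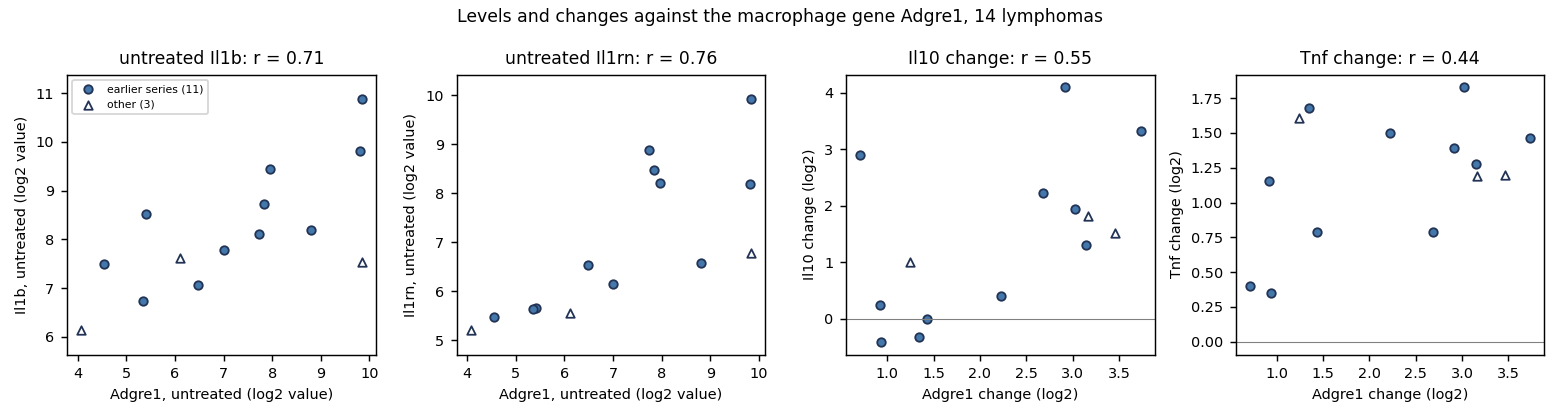
Untreated Il1b and Il1rn levels against the untreated Adgre1 level (left pair, log2 values), and Il10 and Tnf changes against the Adgre1 change (right pair, log2), in 14 lymphomas; circles are the 11 lymphomas of an earlier series and triangles the other 3, and r is Pearson's. Untreated Il1rn climbs with Adgre1 (r = 0.76), and the Tnf change stays above 0 at every Adgre1 change (r = 0.44).

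Among themselves the 10 genes gave 45 pairs of changes, and none passed by Pearson r (lowest adjusted p = 0.110). By rank, Lif and Il1a went together (rho = 0.79, adjusted p = 0.0259 from permutation p = 0.00115; r = 0.65, adjusted p = 0.147 from permutation p = 0.0122). Lif and Il6ra went opposite ways (rho = -0.81, adjusted p = 0.0259 from permutation p = 7.6e-04; r = -0.70, adjusted p = 0.110 from permutation p = 0.00488). Lif and Il6st had r = 0.75 (adjusted p = 0.110 from permutation p = 0.00264) and rho = 0.53 (adjusted p = 0.408 from permutation p = 0.0544). Without the 2 lymphomas farthest from the median of the gene on the x axis, r was 0.56 for Lif with Il1a, -0.69 for Il6ra with Lif and 0.61 for Il6st with Lif, with adjusted p from 0.314 to 0.331.

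No gene of the 10 differed in its change between the 11 lymphomas of an earlier series and the other 3 in limma's test of the difference. The Il6 change was 1.74 ± 0.28 in the 11 and 3.17 ± 0.50 in the 3, a difference of -1.43 ± 0.66 (adjusted p = 0.864). That of Il6st was 1.05 ± 0.32 in the 11 and 0.03 ± 0.22 in the 3, and that of Lif 1.79 ± 0.45 and 0.67 ± 0.14. For the marker Col1a2 the changes were 3.34 ± 0.54 and 1.51 ± 0.27. With 3 lymphomas on 1 side, the test cannot show that the changes were alike. In the 11 alone the same 9 genes rose. In the 3 alone none passed, and 1 gene of all tested rose. At an unadjusted p under 0.05 in limma, 8 of the 10 were higher, all but Il6st and Osm, beside 1633 higher and 1073 lower of 18193 genes.

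The genes whose 14 changes ran most like those of a cytokine gene, by Pearson r, are given as a description for the 9 that rose. For Lif they were Ereg, which encodes an EGF receptor ligand (r = 0.97, change 2.75 ± 0.62), and the matrix genes Dcn (r = 0.96) and Thbs2 (r = 0.96). For Il6st they were Pfkm (r = 0.96), Rbms2 (r = 0.96) and Pdzrn3 (r = 0.93). At r above 0.7 stood 982 genes for Il6st, 892 for Lif, 306 for Il6ra and 247 for Il1a. There were 93 for Il10, 69 for Tnf, 57 for Il1b, 38 for Il6 and 20 for Il1rn. Nearest to Il1rn were the collagenase gene Mmp8 (r = 0.85, change 2.52 ± 0.39), 4930523O13Rik (r = 0.84) and the gelatinase gene Mmp9 (r = 0.82, change 1.74 ± 0.23). Il1b lay nearest to Plekhf2 (r = 0.85), the protease gene Ctsc (r = 0.85) and Ryr2 (r = 0.84). Nearest to Tnf were Tpt1 (r = 0.90), the interferon-induced Ifit3 (r = 0.88, change 1.56 ± 0.27) and Jam3 (r = 0.87). For Il6 they were Pip5k1a (r = 0.89), Svopl and Apold1 (both r = 0.85). Il1a had Gpsm2 (r = 0.92), Rnf19b (r = 0.88) and Fam50a (r = 0.88), Il10 had Igdcc4 (r = 0.87), Tmem18 (r = 0.83) and Rhbdl1 (r = 0.83), and Il6ra had B4galnt1 (r = 0.90), Thbs4 (r = 0.88) and Diras1 (r = 0.87). A high r describes the pattern across lymphomas and not the mean change. Beside Ereg, Mmp8, Mmp9 and Ifit3, the genes Dcn, Thbs2, Ctsc, Pip5k1a, Rnf19b and Fam50a rose. Gpsm2 (-0.96 ± 0.29, adjusted p = 0.0184) and Apold1 (-0.56 ± 0.16, adjusted p = 0.0160) fell in limma's paired fit, and the other genes named here did not pass. All are picks from 18193 genes over 14 points that share the same arrays.

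Around the 10 genes, 87 of 101 listed genes of the same pathways were measured, of which 41 rose and 4 fell. Lists with none lower had none at an unadjusted p under 0.05 either. Among all genes 15.3% rose and 13.4% fell, and counts of 1 in the short lists below lie near these shares. Positive slopes on the Col1a2 change were called in 16 of the 87 and negative ones in 3, against 8.58% and 8.28% of all genes. Of 4 other IL-6 family ligands 3 rose (median 0.64): Ebi3, a subunit of IL-27 and IL-35 (0.98 ± 0.32, adjusted p = 0.0292), Clcf1 (0.83 ± 0.21, adjusted p = 0.00749) and Il11 (0.45 ± 0.14, adjusted p = 0.0259). Of 4 receptors that pair with gp130 or resemble it, 1 rose and 1 fell (median -0.20). Osmr, the oncostatin M receptor subunit, went from 3.04 ± 0.17 (SD) untreated to 5.43 ± 2.16 after ADR, a rise of 2.39 ± 0.51 (adjusted p = 0.00213), and its slope on Col1a2 passed (adjusted p = 1.71e-04). Il27ra fell by 0.45 ± 0.10 (adjusted p = 0.00381).

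Downstream, 4 of 10 genes of JAK-STAT signalling rose and 1 fell (median 0.17), with Pias3, an inhibitor of STAT3, at 0.61 ± 0.15, the adaptor Grb2 at 0.49 ± 0.09 and the kinase Jak1 at 0.39 ± 0.14. The slopes of Pias3 and Jak1 on Col1a2 passed (adjusted p = 0.0115 and 0.00188), and that of Grb2 did not (adjusted p = 0.880). Of 15 STAT3 targets and feedback genes 11 rose and none fell (median 0.61). Lcn2, which encodes the iron-siderophore binding lipocalin 2, rose by 2.73 ± 0.28 (adjusted p = 6.18e-06) and the acute-phase gene Saa3 by 2.04 ± 0.23 (adjusted p = 1.04e-05), each in 14 of 14 lymphomas. The protease inhibitor gene Timp1 rose by 2.38 ± 0.48 (adjusted p = 0.00141), and its slope on Col1a2 passed (adjusted p = 1.02e-05), which those of Lcn2 and Saa3 did not (adjusted p = 0.233 and 0.927). Several of these targets are also driven by NF-kB.

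In the IL-1 family, 4 of 14 further genes rose and 1 fell (median 0.33). Il18, an IL-1 relative matured by caspase-1, rose by 1.34 ± 0.14 (adjusted p = 7.44e-06) in all 14 lymphomas. The signalling receptor Il1r1 rose by 0.58 ± 0.16 (adjusted p = 0.0135), with a slope on Col1a2 past the threshold (adjusted p = 4.12e-04), and the inflammasome sensor Nlrp3 by 0.57 ± 0.14 (adjusted p = 0.00709). Of 11 genes of IL-1 receptor signalling 6 rose and 1 fell (median 0.28), with the negative regulator Irak3 at 0.84 ± 0.22, the kinase Irak2 at 0.82 ± 0.16 and the NF-kB activator subunit Ikbkg at 0.69 ± 0.08.

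Of 12 genes of TNF signalling 6 rose and none fell (median 0.31). Both TNF receptors were higher in 14 of 14 lymphomas, Tnfrsf1b by 1.44 ± 0.22 (adjusted p = 1.51e-04) and Tnfrsf1a by 0.88 ± 0.18 (adjusted p = 0.00129), and the adaptor Traf1 rose by 1.18 ± 0.21 (adjusted p = 5.03e-04). The slope of Tnfrsf1a on Col1a2 passed (adjusted p = 0.0101), and those of Tnfrsf1b and Traf1 did not (adjusted p = 0.0891 and 0.838). Of 5 receptors of the IL-10 family Il10rb alone rose, by 0.99 ± 0.11 in 14 of 14 lymphomas (adjusted p = 1.36e-05). Of 12 genes of NF-kB and of the decay of cytokine mRNA, 5 rose and none fell (median 0.45). They included Dusp1, a phosphatase that curbs p38 signalling (1.32 ± 0.27), the IκB-like cofactor Nfkbiz (0.58 ± 0.17) and Zc3h12a, the RNase regnase-1 that degrades Il6 mRNA (0.55 ± 0.10). Of these 3 the Dusp1 slope on Col1a2 passed (adjusted p = 0.00874).

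**Figure D5:**
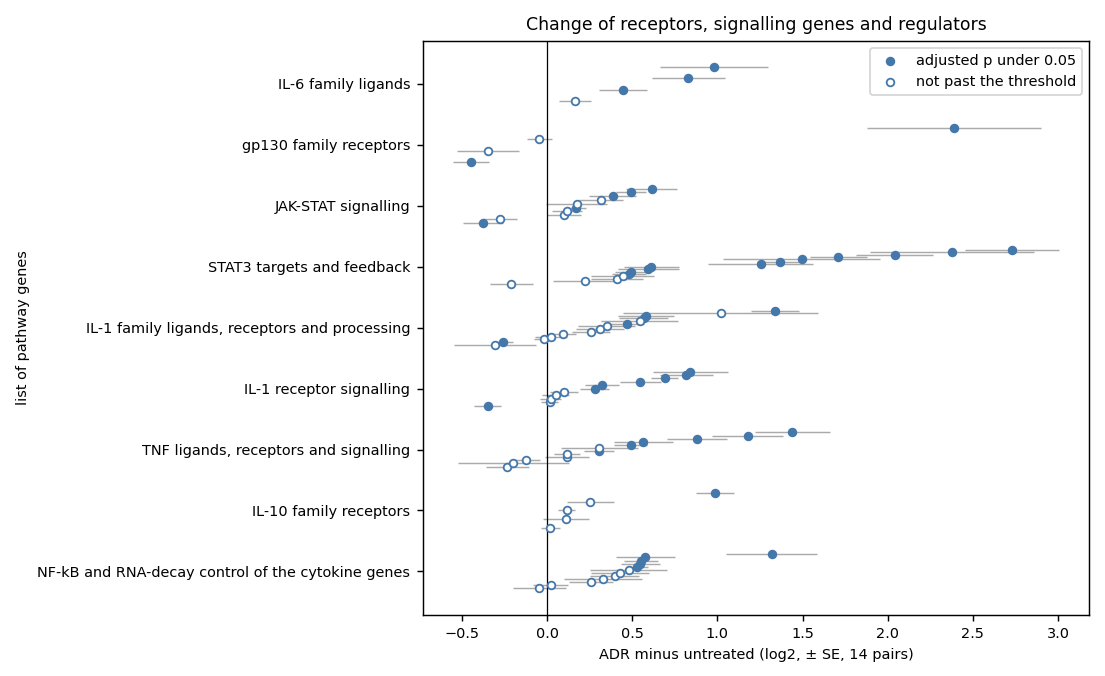
ADR minus untreated change (horizontal axis, log2, with SE, n = 14 pairs) of 87 pathway genes in 9 lists, 1 point per gene; filled points passed limma's adjusted p of 0.05. Of the 87 genes 41 rose and 4 fell, and the largest rises are those of Lcn2 (2.73), Osmr (2.39) and Timp1 (2.38).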

How the data were processed

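The authors deposited log2 expression values for 45101 probe sets on 28 arrays; per the submitters' processing notes these were made with RMA, which corrects background, normalizes arrays and summarises probes, and with Partek 6.5. The genome build behind the array is not given in the sources used here. Probe sets were named with the array's annotation of 2016. The 34945 probe sets with 1 gene gave 18193 genes, and for the 9010 genes with several the brightest on average was taken. Changes were fitted with limma 3.58.1 (R 4.3.3) in a paired design, 1 block per lymphoma, with p-values adjusted across all genes (Benjamini-Hochberg, threshold 0.05). The pairing comes from the labels, and arrays of 1 lymphoma deviated together (r 0.27 to 0.61, against a median of -0.08 between lymphomas). Slopes were fitted by limma on the 14 changes, and permutation tests were two-sided (numpy 2.4.6, with ranks from scipy 1.17.1). Scripts were tested on simulated data. The labels name 1 culture per lymphoma and group. The 10 genes, the 9 pathway and 7 marker lists and the tests were chosen with earlier results of these data known. Named pathway genes are up to 3 per list past the threshold with the largest change, and like genes the 3 with the highest r. Alternatives tried were the block, the choice of probe set, a filter, array weights and centring, variance settings, leaving lymphomas out, and Col1a2 or Adgre1 as covariates.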

Additional observations from a re-analysis of the deposited data

How the results depend on the processing

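The count of 9 genes of the circuit that rose stayed between 8 and 9 when any 1 lymphoma was left out, with 2419 to 2862 of all genes higher and 2082 to 2572 lower. Without the replicate block, which drops the pairing, 1933 genes were higher and 1723 lower and the count of the circuit was again 9. Among genes at or above the median level, where 8 of the 10 remained, it was 7, and with the largest-variance probe set, the mean over probe sets, or without 403 and 5560 or 2581 and 2949 it was 8, Il6st being the loss in these 4. In the other 3 lymphomas 1 gene was higher, 0 lower and 0 of the circuit, against 1633, 1073 and 8 at an unadjusted p under 0.05 in limma. With Col1a2 as a covariate 1020 genes were higher, 833 lower and 3 of the circuit higher (2401, 1887 and 6 at an unadjusted p under 0.05). At that unadjusted threshold 1 gene of the circuit, Il6st, was lower (p = 0.0169 in limma). With Adgre1 as a covariate the counts were 9, 9 and 0 (1515, 1519 and 3 at an unadjusted p under 0.05), and with both 0, 0 and 0 (1152, 992 and 3). Il6st turned to -0.69 and Lif to -0.31 with Col1a2, to -0.60 and -1.11 with both, and Il10 to -0.15 with Adgre1 and -0.21 with both, none past the threshold; the cause was not tested. Osm turned to -0.053 in the 11 lymphomas and ran from -0.029 to 0.11 with 1 lymphoma left out. Without the 2 farthest lymphomas 1 gene correlated with Col1a2 and 1 with Adgre1, and signs of uncalled r turned for Il1b with Col1a2 (0.054) and, with Adgre1, for Il6ra (-0.17), Il6st (0.14) and Osm (0.13). With the mean of the macrophage markers in place of Adgre1, r of Il6ra was -0.067 and of Il6st 0.050. Low array values, as for Lif and Il1a untreated, limit what a change can show.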

Other observations

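Lymphoma 1467 stood apart in the direction of several genes: Il6, Il6st, Lif and Il1a were lower after ADR (-0.70, -0.49, -0.63 and -0.77), while Il10 (4.10), Il1rn (3.30) and Il1b (1.92) were higher. It had the smallest Col1a2 change, 0.38, and an Adgre1 change of 2.92. Lymphoma 403 showed another mix, with Il6st (3.12), Lif (3.08), Il10 (2.90) and Il1rn (2.88) higher and Il1b (-0.66) and Il6ra (-0.66) lower, at a Col1a2 change of 6.31 and an Adgre1 change of 0.71. All 10 genes were higher after ADR in lymphomas 1570, 5043, 5766 and 9583, and 6 were in 1467. The median change over the 10 genes ran from 0.53 in 1467 to 2.40 in 2581. These lymphomas were chosen after their values were seen.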
